A study of Mus musculus with 2 samples.

Results

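The microRNAs Mir208a, Mir208b and Mir499 are transcribed from introns of myosin heavy chain genes, and their levels were read from small RNA libraries of mouse heart. They were found by matching the Ensembl identifiers of the deposited tables to the symbols of GENCODE release M21, which gave 3 of the 2202 microRNA genes counted. The tissue came from female B6CASTF1/J mice aged 2 months, hybrids of a C57BL/6J and a CAST/EiJ parent, with no treatment named. The 2 libraries are numbered as biological replicates of 1 group and as separate females of a tissue bank, but their donor label is identical, and only that numbering says that there were 2 animals. No contrasting condition was given, and every difference below is between these 2 libraries.

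The alpha myosin heavy chain Myh6 and the beta chain Myh7 are the motor proteins of the cardiac sarcomere, and adult mouse ventricle is known to rely mainly on the alpha form. Myh7b is a more distant myosin gene expressed in heart and slow skeletal muscle. Each carries a microRNA in an intron, and the hosted microRNAs are known in mice to act on regulators of slow muscle genes, of thyroid hormone signalling and of the stress response of the heart. A microRNA selects its targets mainly by its seed, bases 2 to 8 of the mature strand, and for these genes the strands known as the main products are miR-208a-3p, miR-208b-3p and miR-499-5p.

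These 3 mature strands are shown because they share part of the seed. They are taken from RefSeq for build GRCm38.p6, run 5′ to 3′, and have bases 2 to 8 in capitals.
miR-208a-3p: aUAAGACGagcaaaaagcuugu
miR-208b-3p: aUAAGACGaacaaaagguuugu
miR-499-5p: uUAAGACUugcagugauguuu

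The seed UAAGACG was shared by miR-208a-3p and miR-208b-3p and by no other of the 1738 mature mouse microRNAs in the table, which is not complete. The seed of miR-499-5p is UAAGACU, which no other entry carried. Bases 2 to 7, UAAGAC, were the same in all 3 strands, and these were the only 3 entries that had them there. Past the seed the strands diverge. miR-208a-3p and miR-208b-3p were identical at 19 of 22 positions, and miR-208a-3p and miR-499-5p at 12 of the 21 positions that could be compared. The 3 differences of miR-208b-3p from miR-208a-3p, counted from 1 at the 5′ end with the base of miR-208a-3p first, were G10A, A16G and C18U. On the other arm, miR-208a-5p and miR-208b-5p shared the seed AGCUUUU with each other and with miR-6415, whose gene had 0 counts in both libraries.

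The hairpins, from which both arms are cut, are shown in the same way with the 2 mature strands in capitals, 5p arm first. The main product lies on the 3p arm in the Mir208 hairpins and on the 5p arm in Mir499.
Mir208a: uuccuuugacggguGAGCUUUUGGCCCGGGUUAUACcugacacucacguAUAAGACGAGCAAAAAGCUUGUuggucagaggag
Mir208b: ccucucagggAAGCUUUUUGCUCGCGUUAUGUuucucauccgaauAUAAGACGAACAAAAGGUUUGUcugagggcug
Mir499: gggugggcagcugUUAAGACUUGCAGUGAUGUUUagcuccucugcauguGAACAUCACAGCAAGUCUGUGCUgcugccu

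The hairpins were 83 bases long for Mir208a, 77 for Mir208b and 79 for Mir499. Counting had been done per gene, so the deposited values add the reads of both arms and cannot say which arm was present. The longest exact stretch shared with the hairpin of any of the other 2201 microRNA genes was 12 bases for Mir208a, 11 for Mir208b and 12 for Mir499. No member therefore shared 20 bases, a length near that of a mature strand, with another microRNA hairpin. The rest of the genome and the opposite strands of the hairpins were not searched. Reads that mapped to several places, 42.7% of replicate 2 and 49.5% of replicate 1, had been counted for no gene. GC content was 49.4% in the Mir208a hairpin, 45.5% in Mir208b and 51.9% in Mir499, against a median of 50.8% (quartiles 44.5 and 56.1) over the 262 detected genes with a hairpin in the table.

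In mm10, the assembly of the files, Mir208a lies on the minus strand at chr14:54949060-54949142, in intron 29 of the 39-exon Myh6 transcript. Mir208b lies on the same strand at chr14:54975700-54975776, in intron 31 of the 41-exon Myh7 transcript, and 26557 bases separate the hairpins. Mir499 lies on the plus strand at chr2:155622880-155622958, in intron 19 of the 42-exon Myh7b transcript. All 3 sit in short introns of 542, 461 and 481 bases (Mir208a, Mir208b and Mir499), on the strand of the host. The hairpin began 195 bases after the upstream exon for Mir208a, 102 bases for Mir208b and 158 bases for Mir499. The distance from the host's transcript start was 17499 bases for Mir208a, 18850 for Mir208b and 11668 for Mir499, which places the Mir208 genes at 70.8% and 79.0% of the transcript's span and Mir499 at 50.5%. No annotated gene other than the host overlapped any of the hairpins. No host messenger RNA was measured here.

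**Figure D1:**
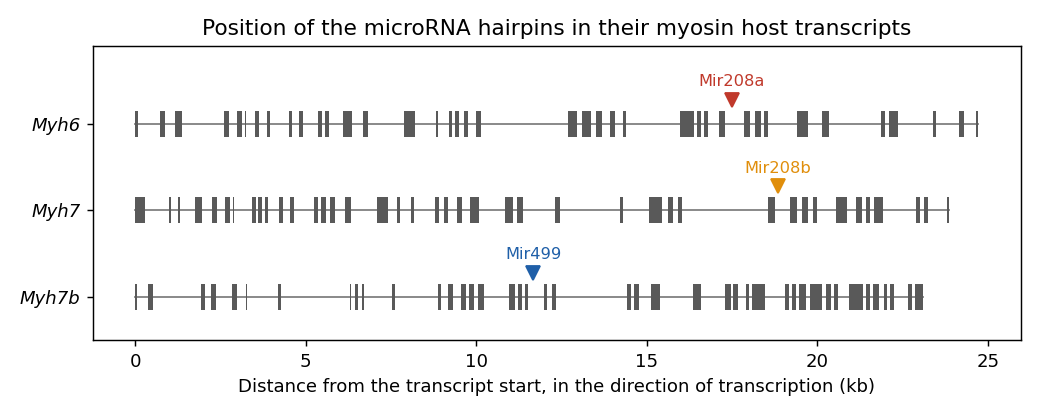
Position of each microRNA hairpin (coloured triangle, at the hairpin's 5′ end) in its host transcript, with exons as dark boxes and introns as the line. The horizontal axis is the distance in kilobases from the transcript start in the direction of transcription; Mir208a and Mir208b lie in introns 29 and 31, in the last part of their hosts, and Mir499 in intron 19, near the middle of Myh7b.

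Replicate 2 held 2770301 reads on the own strand of microRNA genes and replicate 1 held 2424441. Levels are given as CPM, counts scaled to 1000000 for that total, with 95% exact Clopper-Pearson intervals that cover counting error only. Detection was set at 10 or more counts in each library, which 306 genes reached, all 3 members among them. A count of 0 allows a level of up to 1.08 CPM in replicate 2, or 1.24 CPM in replicate 1. The libraries differed beyond counting error over all genes (chi-square of 510 per degree of freedom), so they were not copies of 1 table.

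Mir208a, the microRNA of the alpha myosin gene, had 16249 own-strand counts in replicate 2 and 3739 in replicate 1. Its level was 5865 CPM in replicate 2 (interval 5776 to 5956) and 1542 CPM in replicate 1 (1493 to 1592), a mean of 3704 ± 3057 CPM (SD, n = 2). It ranked 25 of 2202 genes in replicate 2 and 58 in replicate 1.

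Mir499, the microRNA of Myh7b, had 7316 counts in replicate 2 and 10556 in replicate 1. Its level was 2641 CPM in replicate 2 (interval 2581 to 2702) and 4354 CPM in replicate 1 (4272 to 4438), a mean of 3497 ± 1211 CPM (SD, n = 2). It ranked 42 in replicate 2 and 32 in replicate 1. The means of Mir208a and Mir499 lay within 1 SD of each other, and the libraries ranked these genes in opposite order.

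Mir208b, the microRNA of the beta myosin gene, had 109 counts in replicate 2 and 204 in replicate 1. Its level was 39.3 CPM in replicate 2 (interval 32.3 to 47.5) and 84.1 CPM in replicate 1 (73.0 to 96.5), a mean of 61.7 ± 31.7 CPM (SD, n = 2). It ranked 184 in replicate 2 and 152 in replicate 1, below Mir208a and Mir499 in each library. In bulk tissue such a level does not tell fewer expressing cells from less RNA per cell.

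**Figure D2:**
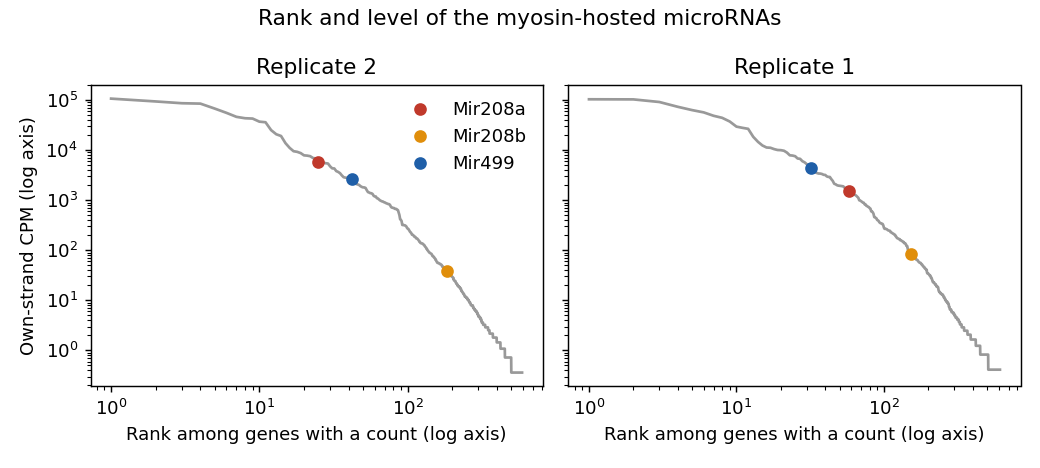
Level in CPM (vertical log axis) against rank among genes with at least 1 count (horizontal log axis), in replicate 2 on the left and replicate 1 on the right; the grey line joins all such genes and the coloured points are the members. Mir208a stands above Mir499 in replicate 2 (ranks 25 and 42) and below it in replicate 1 (ranks 58 and 32), and Mir208b is far down the curve in both (ranks 184 and 152).

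Among the 121 detected genes that lie wholly in introns of protein-coding genes on the host's strand, Mir208a ranked 12 in replicate 2 and 26 in replicate 1. Mir499 ranked 22 in replicate 2 and 18 in replicate 1. Mir208b ranked 80 and 63, with levels below the median of those genes (87.7 CPM in replicate 2 and 90.7 in replicate 1). Mir208a and Mir499 thus lay above that median in each library, and Mir208b below it.

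The counting columns also give reads on the opposite strand. All 3 members had 0 opposite-strand counts in both libraries, as did 282 of the 306 detected genes. With 3 counts as the limit that a 0 allows, opposite-strand reads could have reached at most 0.0185% of the own-strand count for Mir208a in replicate 2 and 0.0802% in replicate 1. For Mir499 the limit was 0.0410% in replicate 2 and 0.0284% in replicate 1, and for the scarcer Mir208b 2.75% and 1.47%. The column that ignores strand gave the same count as the own-strand column for each member.

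Ratios between members within a library need no scaling. Mir208a counts were 149 times those of Mir208b in replicate 2 (exact conditional binomial interval 123 to 182) and 18.3 times in replicate 1 (15.9 to 21.2). Mir499 counts were 67.1 times those of Mir208b in replicate 2 (55.6 to 81.9) and 51.7 times in replicate 1 (45.0 to 59.7). This ratio was 1.30-fold larger in replicate 2 than in replicate 1 (interval 1.02 to 1.66), whereas the ratio of Mir208a to Mir208b was 8.13-fold larger (6.40 to 10.4).

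The ratio of Mir208a to Mir499 changed sides between the libraries. It was 2.22 in replicate 2 (interval 2.16 to 2.28) and 0.354 in replicate 1 (0.341 to 0.368), a 6.27-fold difference (5.98 to 6.57). Its geometric mean was 0.887, so no order of these 2 genes held over both libraries. Taken per base of hairpin, each ratio of both libraries kept its side of 1. Reads of a small RNA library span a whole mature strand, so a longer hairpin does not by itself give more reads.

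**Figure D3:**
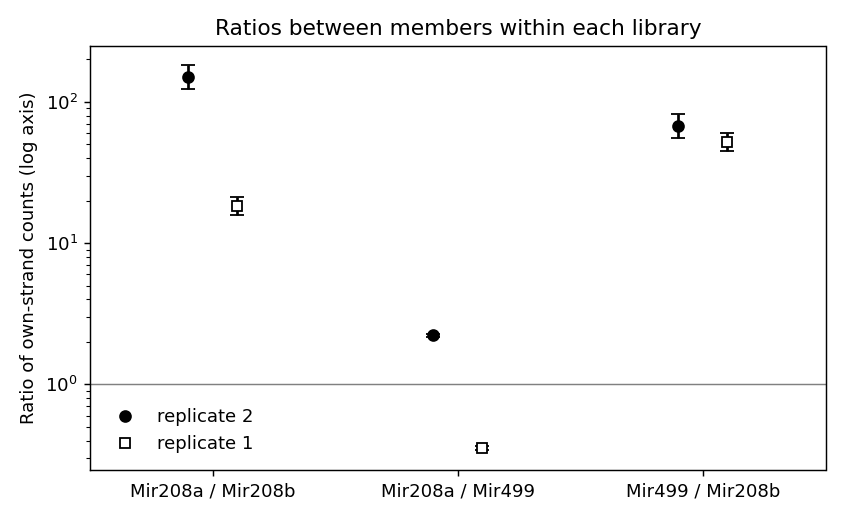
Ratio of own-strand counts between members (vertical log axis) in replicate 2 (filled circles) and replicate 1 (open squares), with 95% exact intervals; the grey line marks a ratio of 1. The ratio of Mir499 to Mir208b is close in both libraries (67.1 and 51.7), while those with Mir208a on top differ 8.13-fold and 6.27-fold between the libraries.

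Together the 3 genes, whose main strands share UAAGAC at bases 2 to 7, made up 0.855% of replicate 2 counts (interval 0.844 to 0.865), against 0.598% of those of replicate 1 (0.588 to 0.608). The sum was 1.43-fold larger in replicate 2, and its make-up differed as well. Mir208a made up 68.6% of the sum in replicate 2 and 25.8% in replicate 1, and Mir499 30.9% in replicate 2 and 72.8% in replicate 1. Mir208b contributed 0.460% and 1.41%.

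The difference of each gene between the libraries was tested by splitting its counts at the share that the 2 library totals give (exact binomial test, two-sided), and p-values were adjusted by Benjamini-Hochberg over all 306 detected genes. All 3 members passed it, but so did 61.1% of all genes tested, so passing is nothing particular to the members. Mir208a was 3.80-fold higher in replicate 2 (log2 ratio 1.93, interval of the fold 3.67 to 3.94), with an adjusted p too small to be written by the software. Mir208b was 2.14-fold lower in replicate 2 (log2 ratio -1.10, interval 1.69 to 2.72; adjusted p = 2.01e-10 by the exact binomial test). Mir499 was 1.65-fold lower (log2 ratio -0.72, interval 1.60 to 1.70; adjusted p = 1.33e-240 by the same exact test).

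A difference of at least 1.5-fold with the test passed was seen for all 3 members and for 36.6% of the detected genes. Higher in replicate 2 was 1 member, against 11.1% of genes, and lower were 2 members, against 25.5%. Of the 306 genes 4 had a larger log2 ratio than Mir208a, and 31 had a smaller one than Mir208b. Mir499 lay nearer the middle, with 69 genes below it. The log2 ratio of the median gene was -0.19, which TMM factors moved to 0.03 and DESeq2 size factors to 0. Both factor sets centre the libraries on the bulk of genes, and with them 32% and 31.7% of genes, for TMM and DESeq2, passed with at least 1.5-fold. Under the same factors Mir208a was 4.42-fold and 4.34-fold higher, and Mir208b 1.84-fold and 1.87-fold lower. Mir499 came to 1.42-fold and 1.44-fold lower, under the 1.5-fold limit.

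The binomial test knows counting error alone. Set against the spread of all genes between the libraries (edgeR's common dispersion, a biological coefficient of variation of 0.383), 0.654% of genes passed, which were Mir26a-2 and Mir451a, and none of the members did. The adjusted p of this edgeR likelihood ratio test was 0.48 for Mir208a (unadjusted 0.017), 0.997 for Mir208b and 0.997 for Mir499. With DESeq2's dispersion trend in its place the adjusted p was 0.81 for Mir208a and 0.999 for the other two. With 1 library on each side, neither test speaks for a difference between animals.

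**Figure D4:**
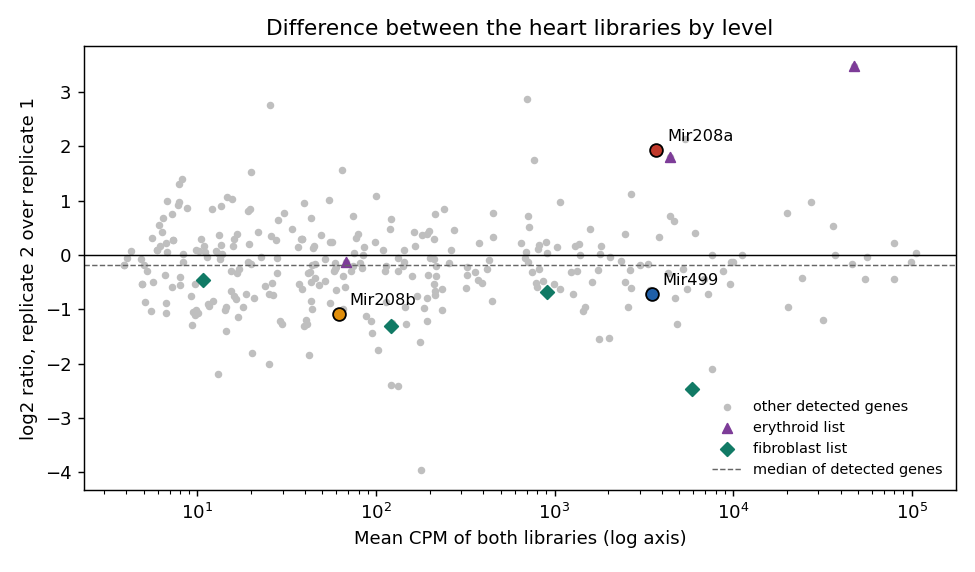
Log2 ratio of replicate 2 over replicate 1 (vertical axis) against mean CPM (horizontal log axis) for the 306 detected genes in grey, with the members in outlined colours, the erythroid list as triangles and the fibroblast list as diamonds; the dashed line is the median gene at -0.19. Mir208a lies near the top at 1.93, between Mir144 of the erythroid list at 1.81 and Mir99b, outside that list, at 2.13. Mir499 and Mir208b lie below the median at -0.72 and -1.10.

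Markers of other cell types moved between the libraries as well. The erythroid list (Mir451a, Mir144 and Mir3107, which lies opposite Mir486) made up 9.38% of replicate 2 counts but 0.985% of replicate 1 counts, and 2 of its 3 detected genes passed the test at 1.5-fold or more higher in replicate 2 (11.1% of all genes did). Its leading gene Mir451a, needed for red cell maturation, had levels of 86827 CPM (replicate 2) and 7816 CPM (replicate 1). The share of the fibroblast list was 0.259% in replicate 2 against 1.13% in replicate 1, and 3 of its 4 detected genes passed the test at 1.5-fold or more lower in replicate 2 (25.5% of all genes did), or 2 with TMM or DESeq2 factors. Mir21a, abundant in activated fibroblasts, carried most of that share, at 1810 CPM in replicate 2 and 10018 in replicate 1; without it, an alternative chosen after seeing the data, the list stood at 0.0784% and 0.131%. No more than 9 counts per library fell on Mir199a-1 or Mir199a-2 of that list. Stretches shared with other hairpins were searched only for the muscle list. Few reads of these genes can therefore not be told from reads set aside for mapping to several places, and their levels are uncertain. The part of these cell types in the members' differences was not tested. Leaving the erythroid list out of the library totals changes only the totals. It shifts the log2 ratio of every gene by the same amount and so tests no part of these cells. With those totals Mir208a was 4.16-fold higher in replicate 2, Mir208b 1.96-fold lower and Mir499 1.51-fold lower.

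The endothelium list made up 8.82% of replicate 2 and 7.70% of replicate 1, with Mir126a on top (85269 CPM and 73653). The smooth muscle list held 4.45% and 5.07%, nearly all from Mir143 (43522 CPM in replicate 2 and 48716 in replicate 1). The leukocyte list held 0.519% and 0.707%, led by Mir155 (2027 and 2088 CPM). The leading genes do not stand for all genes of their lists. At 1.5-fold or more lower in replicate 2, 1 of 3 detected endothelium genes passed the binomial test (25.5% of all genes did). So did 1 of 2 smooth muscle genes and 3 of 5 leukocyte genes, the latter 1 with TMM or DESeq2 factors. In these lists 0 genes passed as that much higher. Markers of tissues outside the heart had small shares. The epithelium list held 0.0369% of replicate 2 and 0.0339% of replicate 1, led by Mir200c (269 and 159 CPM). Mir200c exceeded the member Mir208b (39.3 and 84.1 CPM) in each library. Of the list's 5 detected genes, 1 passed at 1.5-fold or more higher in replicate 2 and 1 lower. The liver microRNA Mir122 stood at 17.3 and 40.4 CPM, and passed as 1.5-fold or more lower in replicate 2.

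The label of the tissue was checked against muscle microRNAs. In a list of 10 such genes, the members held 80.2% of the counts in replicate 2 and 74.5% in replicate 1. Mir486, known from muscle and red cells, stood at 1919 CPM in replicate 2 and 1710 in replicate 1, where it exceeded Mir208a. It shares 22 bases with the opposite-strand gene Mir3107, so that some of its reads may have been set aside and its level is uncertain. Mir206, textbook marker of skeletal muscle, stood at 161 and 268 CPM, far below Mir208a and Mir499. It was above the third member, Mir208b (39.3 CPM in replicate 2 and 84.1 in replicate 1).

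The classical heart microRNAs Mir1a-1, Mir1a-2, Mir133a-1 and Mir133a-2 had 5, 67, 5 and 9 counts in replicate 2 and 6, 141, 11 and 5 in replicate 1. Mir133b had 12 and 10 counts. Each of these 5 genes shares 20 or more bases with a copy at another locus (28 bases between the Mir1a genes, 31 between the Mir133a genes), so that reads of their common strands may have been set aside and their levels are uncertain. Of the 7 heart muscle markers (the members with the Mir1a and Mir133a genes), only the members share no such stretch with another microRNA hairpin. The members supplied 99.6% of that group's counts in replicate 2 and 98.9% in replicate 1. Of the 7 detected genes of the muscle list 6 passed the binomial test (61.1% of all genes did). At least 1.5-fold higher in replicate 2 was Mir208a, and lower were Mir499, Mir208b, Mir206 (1.67-fold) and Mir1a-2 (2.40-fold); with TMM or DESeq2 factors 2 of these 4 stayed past 1.5-fold. The list's median log2 ratio was -0.72, beside -0.19 over all detected genes, but its median gene was the member Mir499 itself. Its detected genes outside the members went both ways: Mir486 stood at 0.17, Mir133b at 0.07, Mir206 at -0.74 and Mir1a-2 at -1.27.

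**Figure D5:**
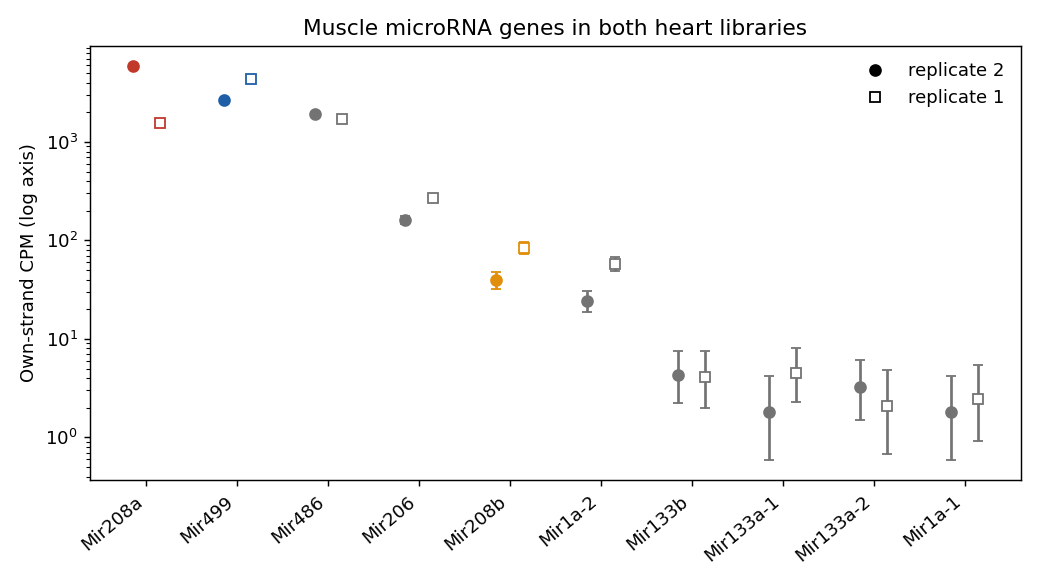
Own-strand CPM (vertical log axis) of the 10 muscle microRNA genes in replicate 2 (filled circles) and replicate 1 (open squares), with 95% exact intervals from counting error, ordered by mean; members are coloured. Mir208a and Mir499 have the highest means, with levels between 1542 and 5865 CPM, and cross between the libraries. Mir486, whose level is uncertain because it shares 22 bases with Mir3107, exceeds Mir208a in replicate 1. Mir208b lies at 39.3 and 84.1 CPM, and the 4 genes on the right, which share bases with other loci, lie below 5 CPM.

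Genes of the nearest level were found for each member by distance over the log2 CPM of the 2 libraries, a description from 2 points. Nearest to Mir208a was the erythroid Mir144, at 6858 CPM in replicate 2 and 1963 in replicate 1 (distance 0.41), followed by Mir423 and Mir99b. Nearest to Mir499 was Mir106b, of the Mcm7 cluster, at 2685 and 4192 CPM (distance 0.06), followed by Mir17 and Mir221. Nearest to Mir208b was Mir503, at 44.0 and 87.4 CPM (distance 0.17), followed by Mir345 and Mir7j. No member was among the 3 nearest genes of another.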

How the data were processed

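Small RNA of 2 heart libraries was analysed. As deposited, the values are unnormalized read counts for each microRNA gene; per the labels the assembly is mm10, and a text file beside the tables gives GENCODE M21 as the annotation. No source used here gives the aligner, counter or trimming. The 3 count columns (either, own and opposite strand) were identified from their values. The 4 lines that name no gene held 65.3% of replicate 2 and 70.0% of replicate 1 and were left out of library totals and tests. All 2202 identifiers matched the annotation.

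The members and the 9 lists were chosen with earlier results of these data known. Named genes are the members, the muscle list, the 3 genes nearest in level to each member, microRNAs sharing a member's seed and the leading gene of each other list; Mir26a-2, which passed a dispersion test, and Mir3107, Mir199a-1 and Mir199a-2 of the lists fall outside this rule and were chosen after their values were seen. P-values measure only differences between these 2 libraries, which may be technical. Both tests were run on simulated data. There the edgeR test was given the true dispersion, which was smaller than the one estimated here, and changes larger than those of the members. DESeq2's trend was not simulated, so the simulation does not cover the setting used for the members. Alternatives were other count columns, scalings, filters, dispersions and single libraries. Without molecular identifiers, intervals cover counting error only. Sequences are RefSeq's, host introns are from the longest principal transcript. Python 3.11.15 (numpy 2.4.6, pandas 2.3.3, scipy 1.17.1, matplotlib 3.10.9) and R 4.3.3 (edgeR 4.0.16, DESeq2 1.42.0) were used.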

Additional observations from a re-analysis of the deposited data

How the results depend on the processing

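Each member's log2 difference kept its sign under 6 scalings, the main one included, each of which shifts all members by the same amount. The 2 other filters and 2 dispersions leave a log2 ratio nearly as it was, so they could not change its sign. With edgeR's common dispersion or DESeq2's trend, which take the spread of all genes as error, the differences of 1.93 (Mir208a), -1.10 (Mir208b) and -0.72 (Mir499) no longer passed, and the genes that differed numbered 2, with or without the 1.5-fold limit, against 187 and 112. At least 1.5-fold held in 6 of 6 scalings for Mir208a and Mir208b and in 2 for Mir499. Over TMM factors, 52 genes were at least 1.5-fold higher and 46 lower in replicate 2, and over DESeq2 factors 48 and 49, against 34 and 78. Scaled to 1000000 of all reads, Mir208a stood at 1248, Mir208b at 19.5 and Mir499 at 1112, since the denominator is larger. On either strand the members' mean share was 0.983%, against 0.726% on the own strand. Their counts were the same in both columns, so this came from a smaller total. That column held 9 counts for Mir126a in replicate 2, against 236222 on the own strand. The mean endothelium share was 0.418% there, against 8.26%. The mean log2 ratio of Mir208a over Mir499, -0.17, reversed to 1.15 without replicate 1 and was -1.50 without replicate 2. Single libraries gave 1542 to 5865 CPM for Mir208a, 39.3 to 84.1 for Mir208b and 2641 to 4354 for Mir499, and log2 ratios of 4.20 to 7.22 for Mir208a over Mir208b and 5.69 to 6.07 for Mir499 over Mir208b. No paired analysis was possible because the labels give a single group. Depth gave Mir208b, with 109 counts in replicate 2, an interval of 32.3 to 47.5 CPM there, narrower than its range over the libraries.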
